A study of Mus musculus with 1507 samples.

Results

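Neat1 is a nuclear long noncoding RNA, and it was followed here with 7 genes for proteins of the paraspeckle, the nuclear body that Neat1 builds: Sfpq, Nono, Pspc1, Tardbp, Cpsf6, Nudt21 and Rbm14. These 8 genes were taken by their symbols out of 47517 gene names in the annotation, and together they hold 62 of its 115125 transcripts. The cells were mouse 5G6GR embryonic stem (ES) cells, a line in which a Gata6-GR transgene, a fusion of the endoderm factor GATA6 with the glucocorticoid receptor, was inserted at random, so that dexamethasone (DEX) drives them toward primitive endoderm (PrE). Every group carried the transgene, ES groups were kept without DEX, and PrE cells of the plates and the chip had 72 h of DEX, given in place of blasticidin. Single cells were profiled by RamDA-seq, a total RNA method that primes along the whole transcript and does not depend on a poly(A) tail. The groups were a time course of 0, 12, 24, 48 and 72 h of DEX, ES cells sorted in G1, S or G2/M phase, ES and PrE cells sorted onto 4 plates called E1, B1, E2 and B2, and 16 ES and 39 PrE cells captured on a C1 microfluidic chip. Wells of purified ES total RNA (10 pg, 1 ng, 10 ng or 1 µg) and of averaged G1 lysate pooled from 180 cells show the spread without differences between cells. No label says that the cells of a time, phase or chip came from more than 1 culture, so comparisons among them are descriptions and only plates or libraries were tested.

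A paraspeckle forms around Neat1 while the RNA is being made. The gene gives a short isoform that ends early at a poly(A) site and a long isoform that reads through this site, ends without a poly(A) tail and is needed for the body to form. SFPQ, NONO and PSPC1 are related RNA-binding proteins that coat Neat1, RBM14 joins paraspeckle subunits through a prion-like domain, CPSF6 and NUDT21 form the CFIm complex that favours the poly(A) site of the short isoform, and TARDBP (TDP-43) binds Neat1 RNA and takes part in the choice between isoforms.

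Neat1 lies on chromosome 19 of the mouse genome (mm10) between positions 5824708 and 5845478 on the minus strand, and the annotation (a lincRNA) gives it 3 transcripts. Neat1-001, the long isoform, is 1 exon of 20771 bases that covers the whole gene. Neat1-002 has 2 exons, runs from 5842307 to 5845476 and is 3004 bases long, and its last base is base 3172 of Neat1-001. Neat1-003 has 4 exons between 5843681 and 5845259 and is 1030 bases long. Both short transcripts lie wholly within the span of Neat1-001. Among the Neat1 transcripts, the 17599 bases beyond the end of Neat1-002 are thus found in the long isoform alone. The first 15.3% of Neat1-001 is the span it shares with the short transcripts, their introns included. Reads from exons shared there can be assigned to a transcript only by estimation. The models that the authors assembled from reads add TCONS_00035919, from 5824841 to 5828065 on the same strand, within the long isoform (mean 1.90 TPM at 0 h). The small RNA genes annotated by Ensembl, Gm27533, Gm27505 and Gm28006, lie in this shared stretch on the same strand.

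The stretch around the end of the short isoform is shown because the split between the isoforms is made there. It is chr19:5842277-5842426 (mm10, minus strand, bases 3053 to 3202 of Neat1-001). Capitals mark the poly(A) signal AATAAA and TGTA, the DNA form of the UGUA that CFIm binds.
Neat1-002 end: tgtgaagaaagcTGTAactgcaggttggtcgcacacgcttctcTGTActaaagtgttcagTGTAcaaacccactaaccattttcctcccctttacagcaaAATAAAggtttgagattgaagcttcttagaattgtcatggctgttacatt
AATAAA starts 19 bases before the annotated last base, and the 3 TGTA start 107, 76 and 59 bases before it. The 200 bases after that base hold 0 TGTA, and Neat1-001 as a whole holds 135, or 6.50 per kb. These matches are letters on the transcript strand, not measured binding.

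The end of the long isoform, at chr19:5824708-5824827 (mm10, minus strand, bases 20652 to 20771 of Neat1-001), is shown for contrast. Capitals mark runs of 4 or more T or A.
Neat1-001 end: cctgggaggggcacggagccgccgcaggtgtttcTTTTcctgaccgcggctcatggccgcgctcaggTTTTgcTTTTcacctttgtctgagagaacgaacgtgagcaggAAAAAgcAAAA
These 120 bases hold 0 copies of AATAAA or ATTAAA, against 6 and 3 copies in the whole of Neat1-001. Their AT share was 43.3%, and that of the whole transcript was 52.7%.

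The primers that the study designed for quantitative PCR of Neat1 lie in the stretch that only the long isoform holds, which places that assay beside the Neat1-001 values below.
Forward primer: gtgagaccgtggttccctga
Reverse primer: tgggtgccctggtgattaca
The forward primer matched chr19:5829533-5829552 and the reverse primer chr19:5829440-5829459, and they bound a product of 113 bases from base 15927 to base 16039 of Neat1-001.

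**Figure D1:**
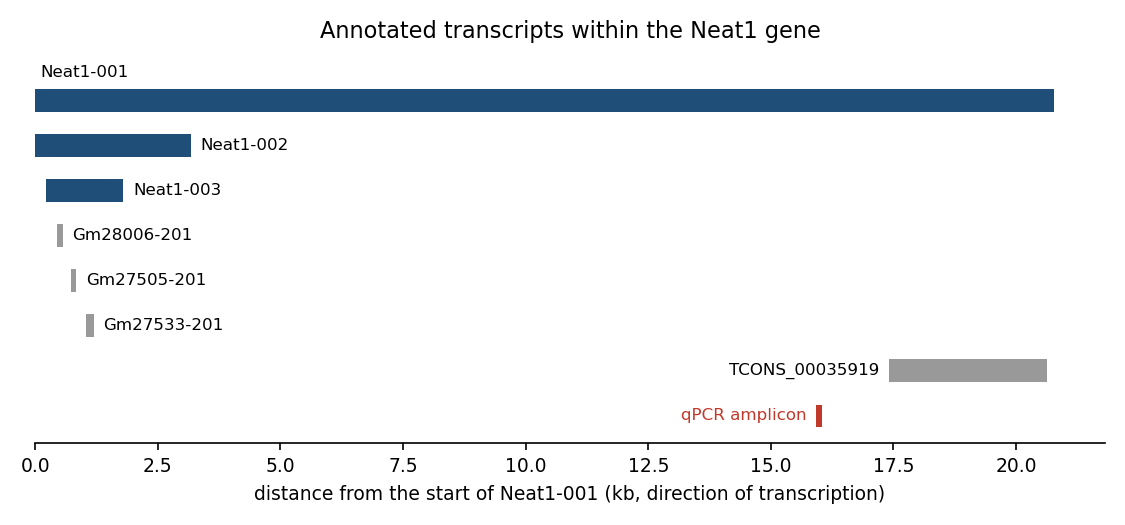
Map of Neat1 drawn to scale, with distance in kb from the start of Neat1-001 on the x axis and 1 bar per transcript (blue for Neat1, grey for other annotated transcripts within it, red for the qPCR product). Both short transcripts sit in the first 15.3% of Neat1-001, and the qPCR product at bases 15927 to 16039 lies beyond them.

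The protein genes lie elsewhere in the genome (mm10). Sfpq is at chr4:127021324-127037013 (plus strand, 6 transcripts), Nono at chrX:101429318-101448591 (plus, 7), Pspc1 at chr14:56722441-56778316 (minus, 4) and Tardbp at chr4:148612382-148627019 (minus, 30). Cpsf6 is at chr10:117344673-117380015 (minus, 8), Nudt21 at chr8:94017770-94037021 (minus, 1) and Rbm14 at chr19:4800569-4811634 (minus, 3).

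Levels are in TPM, a unit that scales each transcript by its length and each cell to the same total and so carries no depth, and a gene's TPM is the sum over its transcripts. The cells matched their labels by their marker genes. The summed mean TPM of 5 ES markers was 558 at 0 h and 30.8 at 72 h, while that of 7 PrE markers was 51.3 and 3436. On the plates the PrE markers summed to between 75.3 and 823 TPM in ES cells with all wells, where plate B2 was the highest, and to between 3801 and 4151 TPM in PrE cells. Without the wells of few transcripts described next, the ES plates were at 75.3 to 87.1 TPM and the PrE plates at 3903 to 4454 TPM. Markers of trophoblast, mesoderm and neural cells together summed to at most 5.44 TPM in any group. Of the 384 plate wells, 27 had few detected transcripts for their group (22 to 25259, with a median of 58, against 26147 to 31606 in the wells kept), so plate results are given with and without them.

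Neat1 was lowest 12 h after DEX, and the long isoform carried most of the difference. Mean Neat1 TPM was 54.2 ± 43.7 at 0 h (SD, n = 90 cells), 19.7 at 12 h (n = 68), 34.7 at 24 h (n = 90), 43.5 at 48 h (n = 82) and 62 at 72 h (n = 91). The 7 protein genes together showed no such dip.

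**Figure D2:**
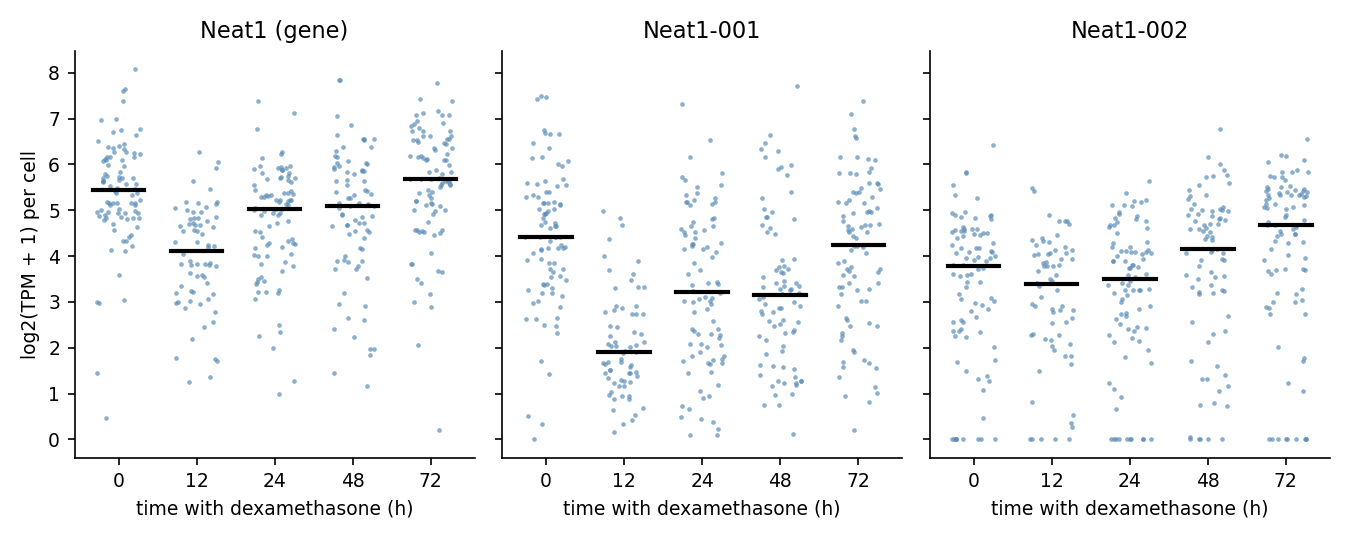
Levels of Neat1 (left), Neat1-001 (middle) and Neat1-002 (right) in every cell of the time course, with hours of DEX on the x axis and log2(TPM + 1) on the y axis (points are cells, bars are medians). The median of Neat1-001 was 20.5 TPM at 0 h, 2.73 TPM at 12 h and 17.9 TPM at 72 h.

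Neat1-001 had a lowest value of 0, a median of 20.5 and a highest value of 179 TPM among 0 h cells. At 12 h it ran from 0.114 through a median of 2.73 to 30.6 TPM, so that the highest 12 h cell lay below the 0 h mean of 33.2 TPM. The median was 8.29 TPM at 24 h (highest 159), 7.85 at 48 h (highest 208) and 17.9 at 72 h (highest 167). The mean at 12 h was 6.72-fold lower than at 0 h. All 4 later times are set against the same 0 h cells, and the cells of each time share a plate, so time and plate cannot be told apart. The 4 G2/M phase markers summed to 377 TPM at 0 h, 524 at 12 h, 491 at 24 h, 388 at 48 h and 249 at 72 h, so that they were highest where Neat1-001 was lowest, and the part of cell cycle phase in this result was not tested.

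Neat1-002, the main short isoform, followed another course. Its median was 12.8 TPM at 0 h, 9.42 at 12 h, 10.3 at 24 h, 16.7 at 48 h and 24.6 at 72 h, with highest values of 84.7, 43.7, 48.6, 109 and 92.6 TPM in that order. It was estimated at 0 in 4 to 9 cells of each time. The lowest median was again that of 12 h, but the highest was that of 72 h. The small RNA genes of the shared stretch can take reads from it too. From 0 h to 12 h their means went from 92.2 to 30.5 TPM (Gm27533), from 41.4 to 19.3 (Gm28006) and from 11.9 to 5.20 (Gm27505). Neat1-002 alone thus does not give the course of the shared stretch. Neat1-003 had means between 3.79 TPM at 12 h and 7.39 TPM at 72 h and was at 0 in 16 to 38 cells of a time.

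On the scale of log2(mean TPM + 1), Neat1 was lower by 1.42 at 12 h than at 0 h, Neat1-001 differed by -2.53, Neat1-002 by -0.41 and Neat1-003 by -0.58. Of the 8 genes, 1 was past a 2-fold difference at 12 h (Neat1), where 7.99% of all genes were in either direction and 5.05% were lower. For the time course, all genes include the authors' assembled transcripts. Each of these counted as a gene of its own, which gave 90109 names in place of 47517. Of the 3 Neat1 transcripts, 1 was past it (Neat1-001), against 6.52% of all transcripts, and 3.86% were lower. At 24 h, 48 h and 72 h, 0 of the 8 genes were past 2-fold, against 15.5%, 25.7% and 29.2% of all genes. Neat1-001 differed by -0.92 at 24 h, and by -1.08 when cells were rescaled by a median-of-ratios size factor, which moved the median of all genes at 24 h from 0.133 to -0.0063. It differed by -0.80 at 48 h and by -0.26 at 72 h, while Neat1-002 differed by 0.47 and 0.82.

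The share of Neat1-001 in the summed mean TPM of Neat1 put the isoforms on a scale that is free of the cells' total. It was 61.2% at 0 h, 25.1% at 12 h, 49.4% at 24 h, 42.7% at 48 h and 44.5% at 72 h. The median cell had a share of 57.2%, 18.5%, 32.3%, 27.8% and 37.1% at those times. The authors' table with assembled transcript models, used for these values, keeps 68 of the 91 cells of 12 h, and all 91 cells of the other table gave a share of 24.1%.

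Most cells held the long isoform at every time. At least 1 TPM of Neat1-001 was found in 87 of 90 cells at 0 h (96.7%, exact binomial 95% interval 90.6 to 99.3), in 57 of 68 at 12 h (83.8%, 72.9 to 91.6), in 80 of 90 at 24 h (88.9%, 80.5 to 94.5), in 77 of 82 at 48 h (93.9%, 86.3 to 98.0) and in 88 of 91 at 72 h (96.7%, 90.7 to 99.3). These intervals cover counting error only. At 0.1 TPM or more, the 12 h share was 100%.

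The core proteins that coat Neat1 had their highest means at 12 h or 24 h. Sfpq had a mean of 155 ± 38.7 TPM at 0 h (SD, n = 90 cells), 207 at 12 h, 217 at 24 h, 145 at 48 h and 129 at 72 h. Nono had means of 162, 209, 179, 170 and 128 TPM at those times. Pspc1 had means of 32.5, 36.9, 44, 33 and 34.6 TPM. The largest of these differences from 0 h was that of Sfpq at 24 h, 0.48 on the log2(mean TPM + 1) scale, and none of the 7 protein genes passed 2-fold at any of the 4 times.

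Among the factors that bear on isoform choice and assembly, Nudt21 was farthest from its 0 h level, at 72 h. Tardbp, the most abundant of the 8 genes, had means of 280, 306, 283, 297 and 244 TPM from 0 h to 72 h. Cpsf6 had means of 55.8, 62.6, 59.8, 56.7 and 48.1 TPM. Its partner Nudt21 had means of 8.63, 7.48, 8.90, 6.79 and 6.00 TPM, the lowest of the 8 genes at every time. Rbm14 had means of 20.9, 19.4, 23.5, 19 and 16.7 TPM. At 72 h, Sfpq, Nono, Tardbp, Cpsf6, Nudt21 and Rbm14 were lower than at 0 h by between 0.20 and 0.46 on the log2(mean TPM + 1) scale, and Pspc1 was at 0.09.

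**Figure D3:**
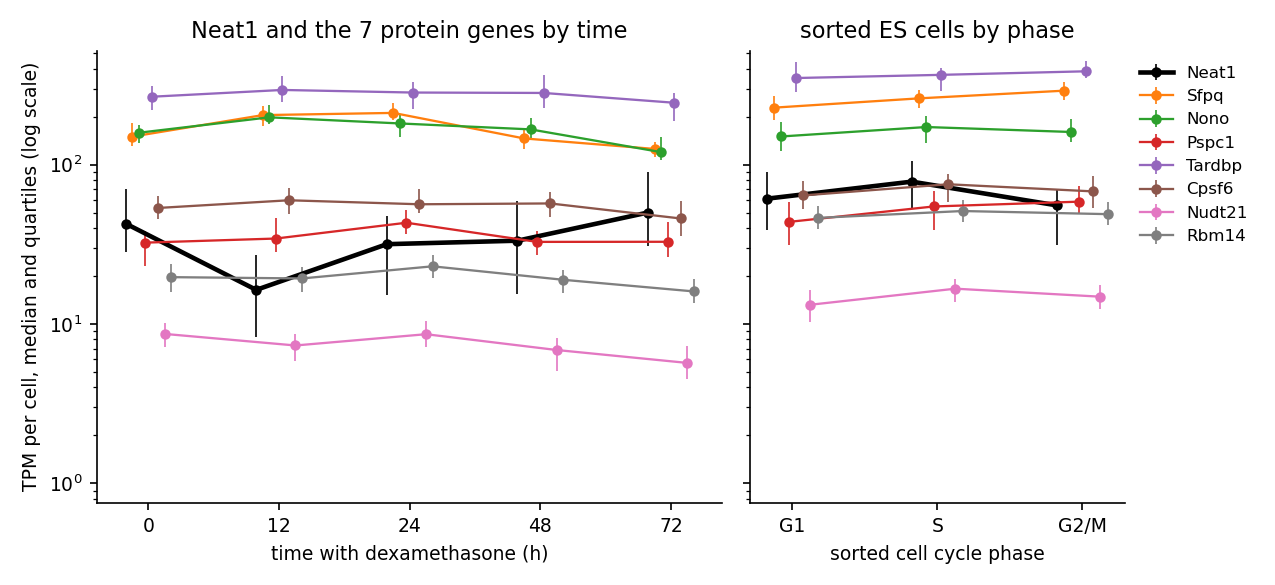
Median TPM per cell of the 8 genes, on a log axis, by hours of DEX (left) and by sorted cell cycle phase (right), with points for medians and bars from the lower to the upper quartile of the cells. The median of Neat1 went from 42.7 TPM at 0 h to 16.4 TPM at 12 h and 50.1 TPM at 72 h, with wider quartiles than those of the protein genes.

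Much of the signal of the protein genes at 0 h was assigned to transcripts that are not annotated as coding. Sfpq-001, the protein-coding transcript, held 35.2% of Sfpq TPM, and the 5 processed transcripts of Sfpq held 64.8%. Nono-001 held 49.6% of Nono, and transcripts with a retained intron held 15%. Pspc1-001 held 33.8% of Pspc1, its retained-intron transcript 26.5% and its transcript marked for nonsense-mediated decay 26.2%. Tardbp was led by a processed transcript, Tardbp-027, with 24.8%, while its retained-intron transcript held 15.1% and 10 transcripts marked for nonsense-mediated decay held 7.40%. Cpsf6-001 held 23.5% of Cpsf6 and Rbm14-001 56.5% of Rbm14, and Nudt21 has 1 transcript only. At 12 h the retained-intron share was 14.5% for Nono, 23.1% for Pspc1, 13.6% for Tardbp and 6.41% for Cpsf6, against 8.30% for Cpsf6 at 0 h.

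Among ES cells sorted by cell cycle phase, Neat1 was highest in S and lowest in G2/M, and the difference again lay in the long isoform. Neat1 ran from 10.9 through a median of 61.2 to 216 TPM in G1 cells (n = 93). The S cells (n = 91) ran from 2.61 through 78.2 to 216 TPM, and the G2/M cells (n = 93) from 6.53 through 55.5 to 182 TPM. The ranges of the 3 phases overlapped almost fully. Neat1-001 had a median of 39.98 TPM in G1 (1.61 to 216), 45.8 in S (0.545 to 212) and 25 in G2/M (0.0688 to 106). Neat1-002 had a mean of 20.9 TPM in G1, 26 in S and 23.8 in G2/M.

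On the log2(mean TPM + 1) scale Neat1-001 differed by -0.59 between G2/M and G1 and by -0.85 between G2/M and S. Neat1-001 made up 66.6% of Neat1 TPM in G1, 67.8% in S and 55.3% in G2/M. In S against G1, 0.944% of all genes were past 2-fold, in G2/M against G1 1.21% were, and in G2/M against S 1.04% were, while 0 of the 8 genes were in any of these. Neat1-003, at means of 2.48, 0.541 and 0.978 TPM in G1, S and G2/M, was the 1 Neat1 transcript past 2-fold (-1.18 in S against G1, background 0.615% of transcripts), and its median was 0 in each phase. The 4 G2/M phase markers summed to 238, 397 and 1028 TPM in G1, S and G2/M. Each phase is 1 set of sorted cells, so that no test between phases was possible.

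All 7 protein genes had their lowest mean in G1, and the median of all genes was itself higher by 0.11 in S and in G2/M than in G1 on the log2(mean TPM + 1) scale. Against G1, the 7 genes differed by between 0.04 and 0.32 in S and by between 0.05 and 0.37 in G2/M. Sfpq had means of 233, 264 and 292 TPM in G1, S and G2/M, and Pspc1 had means of 47.8, 55.0 and 62 TPM. Tardbp had means of 358, 369 and 397 TPM. Nono was at 155, 173 and 165 TPM, Cpsf6 at 66.8, 74.2 and 69.1 TPM, Nudt21 at 13.2, 16.7 and 14.8 TPM, and Rbm14 at 48.1, 52.5 and 49.7 TPM. The widest of these differences was 0.37 on the log2(mean TPM + 1) scale (Pspc1, G2/M against G1).

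TPM of Neat1 spread more between G1 cells than TPM of its protein genes, and it also spread more between wells of pooled lysate. The part of this spread that lies between cells was not separated. The coefficient of variation (CV, the SD over the mean) of TPM among G1 cells was 0.578 for Neat1, 0.808 for Neat1-001 and 0.824 for Neat1-002. For the protein genes it ran from 0.261 for Sfpq to 0.461 for Pspc1. The 9 wells of averaged G1 lysate, where cells were pooled before the reaction, had CVs of 0.44 for Neat1, 0.513 for Neat1-001 and 0.353 for Neat1-002, and of 0.0873 (Tardbp) to 0.317 (Nudt21) for the proteins. In the lysate wells Neat1 ran from 32.7 to 138 TPM, so that wells of shared lysate spread over much of the range of single G1 cells.

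In 9 wells of 10 pg purified RNA run beside the cells, Neat1 was low and the isoform split differed. Their Neat1 ran from 3.92 to 38.1 TPM with a CV of 1.07, and their share of Neat1-001 was 10.3%, against 73.9% in the lysate wells. The well with 38.1 TPM carried both values, since without it the CV was 0.425 and the share of Neat1-001 was 16.3%. These wells of purified RNA and of lysate thus gave different isoform shares in the same unit. The full sets of 10 pg RNA wells below are in counts, another scale, and were not set beside them.

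The C1 cells held less Neat1 than the sorted cells of the other tables, which were made with another protocol and set no common scale. Neat1 ran from 2.34 through a median of 9.73 to 24.9 TPM in 16 ES cells, and from 0.102 through 11 to 64.7 TPM in 39 PrE cells. The ranges overlapped. Neat1-001 had means of 5.12 and 5.37 TPM in ES and PrE cells, and Neat1-002 had means of 4.03 and 7.77 TPM, a log2(mean TPM + 1) difference of 0.80. Neat1-001 made up 48.5% of Neat1 TPM in ES cells and 37% in PrE cells, and at least 1 TPM of it was found in 11 of 16 ES and 25 of 39 PrE cells (68.8% and 64.1%).

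The protein genes were close between the C1 cell types. Nudt21 differed most, with means of 16.1 TPM in ES and 11.5 TPM in PrE cells (-0.46 on the log2(mean TPM + 1) scale), and Nono was at 234 and 201 TPM. Sfpq was at 164 and 176 TPM and Tardbp at 313 and 308 TPM. Of the 8 genes 0 passed 2-fold, where 30.5% of all genes did. All cells of the chip share 1 run, so cell type has no replicate here.

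On the 4 plates, where each plate held ES and PrE cells, Neat1 was higher in PrE cells, and this difference came from the short transcripts, while Sfpq and Nudt21 were lower. These results rest on plate means, compared by limma with trend on log2(mean TPM + 1), n = 4 plates, and adjusted by the Benjamini-Hochberg method over all genes. The series' design text says that 2 experimenters made the plates on separate days, and the labels do not say which plate is whose. Nor do the labels say whether each plate had its own cultures and DEX treatment, so the spread between plates may be technical.

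Without the 27 wells of few transcripts, Neat1 had means of 30.3, 34.2, 34.1 and 29.9 TPM in ES cells of plates E1, B1, E2 and B2. The PrE cells of the same plates had 43.6, 41.8, 44.9 and 46.6 TPM. Every PrE value was above every ES value (44.2 ± 2.03 against 32.1 ± 2.36, SD, n = 4). The log2 difference was 0.51 with all wells (SE 0.10, limma adjusted p = 0.00242) and 0.45 without the low wells (adjusted p = 0.000307). The share of all genes or transcripts whose ES and PrE plates did not overlap was not counted. A lack of overlap, here and below, is thus a description, and 59.8% of all genes were called with all wells.

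Neat1-001 was at 25.3, 25.1, 26.9 and 24.6 TPM in ES cells and at 24.6, 21.8, 24.8 and 21.8 TPM in PrE cells of those plates, again without the low wells. It was lower in PrE cells on 4 of 4 plates, but the groups overlapped, and the log2 difference did not pass the test, at -0.13 without the low wells (limma adjusted p = 0.235) and -0.08 with all wells (adjusted p = 0.611). Neat1-002 and Neat1-003 together lay between 4.94 and 9.06 TPM in ES cells and between 18.9 and 24.8 TPM in PrE cells, with no overlap. With all wells each rose on its own, Neat1-002 by 1.84 (limma adjusted p = 0.000106) and Neat1-003 by 1.40 (adjusted p = 0.000462) on the log2(mean TPM + 1) scale, where 51.4% of all transcripts passed and 31.2% were higher. The median cell held 0 TPM of Neat1-002 on every ES plate and 0 to 1.40 TPM on the PrE plates. For Neat1-003 these medians ran from 0 to 2.63 TPM in ES cells and from 9.73 to 15.8 TPM in PrE cells. On these plates Neat1-003 was the larger of both, with 16.5 ± 2.14 TPM in PrE cells against 4.50 ± 1.44 TPM for Neat1-002 (SD, n = 4 plates), the reverse of their order in the time course.

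The share of Neat1-001 in Neat1 TPM was 83.7%, 73.5%, 78.7% and 82.2% in ES cells of plates E1, B1, E2 and B2. In PrE cells it was 56.8%, 52.2%, 54.2% and 45.3%. The groups did not overlap, and the means differed by -27.4 percentage points (79.5% ± 4.52 against 52.1% ± 4.92, SD, n = 4, exact permutation test, two-sided, p = 0.0286, the smallest that 4 against 4 values can give). Exchanging labels within plates gave an exact p of 0.125, the smallest possible there.

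**Figure D4:**
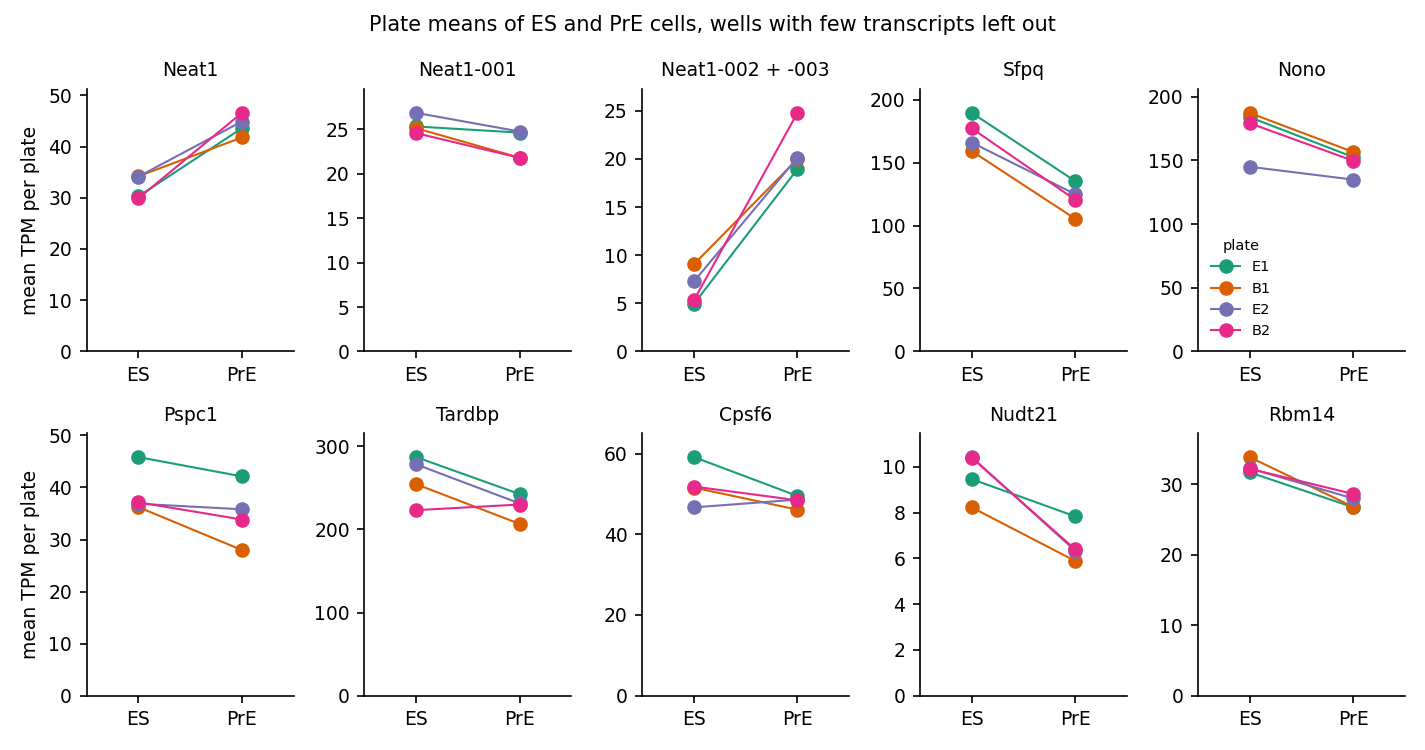
Mean TPM of Neat1, its isoforms and the 7 protein genes in ES and PrE cells of the 4 plates, without the 27 wells of few transcripts (points are plates, lines join the cell types of a plate). The PrE points of Neat1 lie between 41.8 and 46.6 TPM, above the ES points at 29.9 to 34.2 TPM, and those of Sfpq lie below.

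Sfpq had means of 190, 159, 166 and 177 TPM in ES cells and of 135, 105, 125 and 120 TPM in PrE cells without the low wells, with no overlap. It fell by 0.42 with all wells (limma adjusted p = 0.0226) and by 0.51 without the low ones (adjusted p = 0.000621). Nudt21 had means of 9.46, 8.23, 10.4 and 10.4 TPM in ES cells and of 7.83, 5.89, 6.33 and 6.39 TPM in PrE cells, again with no overlap. It fell by 0.44 (limma adjusted p = 0.0142) and by 0.48 without the low wells (adjusted p = 0.00315). With all wells and without plate B1 or B2, the adjusted p of Sfpq was 0.0601 or 0.0527, and without plate E2 or B2 that of Nudt21 was 0.0795 or 0.0573.

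Rbm14 and Nono show what wells with few detected transcripts did to a mean. Rbm14 had means of 31.7, 33.8, 32.2 and 32.2 TPM in ES cells and of 26.7, 26.8, 28 and 28.6 TPM in PrE cells without the low wells, and it fell by 0.23 (limma adjusted p = 0.0049). With all wells its difference was -0.64 and did not pass (adjusted p = 0.131), and 1 of the ES wells left out, on plate B2 with 66 detected transcripts, held 3300 TPM of Rbm14. An ES well of plate B1 with 68 detected transcripts held 18902 TPM of Nono. Without such wells Nono was at 184, 187, 145 and 179 TPM in ES cells and at 153, 157, 135 and 150 TPM in PrE cells. It was lower in PrE cells on 4 of 4 plates, with a difference of -0.22 (limma adjusted p = 0.0553), and with plates as blocks the adjusted p was 0.0043.

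Tardbp, Pspc1 and Cpsf6 differed least. Tardbp was at 261 ± 28.5 TPM in ES and 228 ± 15 TPM in PrE cells (SD, n = 4 plates), and its difference of -0.19 without low wells passed only with plates as blocks (limma adjusted p = 0.0833 and 0.0378). Pspc1 was at 39 ± 4.56 and 34.9 ± 5.83 TPM, with a difference of -0.16 (adjusted p = 0.277 and, with blocks, 0.0686). Cpsf6 was at 52.3 ± 5.13 and 48.2 ± 1.45 TPM, with a difference of -0.11 (adjusted p = 0.214 and 0.151). Transcripts of Pspc1 moved in both directions with all wells. Pspc1-001 was higher by 0.37 in PrE cells (adjusted p = 0.0285), and the transcript marked for nonsense-mediated decay, Pspc1-003, fell by 0.60 (adjusted p = 0.00295).

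With all wells, 1 of the 8 genes was higher and 2 were lower in PrE cells, against 59.8% of all genes called in either direction (34.5% higher and 25.3% lower). Without the low wells 1 was higher and 3 were lower against 65.1% of all genes (35.5% higher, 29.6% lower), and with plates as blocks 1 was higher and 5 were lower against 67.4% (36.7% higher, 30.8% lower). The share of members called was thus below that of all genes in the former fits and near it in the last.

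The 29 other genes of a list of paraspeckle proteins were followed as background. With all wells, 26 of them could be tested, 4 were higher and 6 were lower in PrE cells, with a median difference of -0.21. Of all genes, 59.8% were called in that fit, 34.5% higher and 25.3% lower. Without the low wells 4 were higher and 10 were lower, with a median difference of -0.05. There 65.1% of all genes were called, 35.5% higher and 29.6% lower. The list was thus called less often than all genes in both fits. Fam98a (0.87, limma adjusted p = 5.38e-05) and Rbm7 (0.74, adjusted p = 0.0016), a subunit of the nuclear exosome targeting complex, were the 2 of largest fold among the higher. Cirbp, a cold-inducible RNA-binding protein, fell by 1.01 (adjusted p = 1.44e-05), and Taf15, of the FET family, fell by 0.87 (adjusted p = 1.59e-05), both with all wells. Rbm4b, an RNA-binding protein picked after its values were seen, was at -0.23 with all wells (adjusted p = 0.808) and had the largest fall without the low ones (1.12, adjusted p = 2.58e-06). In the time course, 26 of the list were measured and 0 were past 2-fold at 12 h, 48 h and 72 h, and 1 was higher at 24 h (Fam98a, 1.02), against the 7.99%, 25.7%, 29.2% and 15.5% of all genes past it at those times.

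Libraries from ES total RNA showed how the method sets the isoforms of Neat1. In 1 µg libraries, rRNA-depleted RNA (rdRNA-seq) gave more long and less short isoform than poly(A)-selected RNA (paRNA-seq). Values are estimated counts tested by edgeR's quasi-likelihood test, and the libraries are repeats from RNA whose cultures are not given, so the spread may be technical. Neat1-001 had counts of 200, 174 and 173 in rdRNA-seq and of 124, 118 and 156 in paRNA-seq. It was higher by 1.03 in log2 (SE 0.15, edgeR adjusted p = 0.00699). Neat1-002 had counts of 338, 327 and 289 against 964, 1040 and 1004, and it was lower by 1.08 (SE 0.09, adjusted p = 9e-04), with no overlap. Of the 3 Neat1 transcripts 1 was higher and 1 lower, where 19.9% of all transcripts were called, 9.68% higher and 10.2% lower.

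The sum over both made Neat1 as a gene lower in rdRNA-seq, at 538, 501 and 478 counts against 1116, 1177 and 1171 (-0.61, SE 0.05, edgeR adjusted p = 2.94e-06). The share of Neat1-001 in Neat1 counts was 37.2%, 34.8% and 36.2% in rdRNA-seq and 11.1%, 10.0% and 13.3% in paRNA-seq. The difference of 24.6 points had an exact permutation p of 0.1 (two-sided), the smallest that 3 against 3 can give.

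Of the 8 genes, 0 were higher and 6 were lower in rdRNA-seq than in paRNA-seq, where 49.9% of all genes were called, 23.8% higher and 26.1% lower. Sfpq fell by 0.34 (edgeR adjusted p = 3.81e-06), Rbm14 by 0.42 (adjusted p = 0.000519), Nudt21 by 0.28 (adjusted p = 0.00267), Tardbp by 0.17 (adjusted p = 0.00193) and Nono by 0.12 (adjusted p = 0.00672). Pspc1 differed by 0.00 and Cpsf6 by 0.02 under TMM normalization. With library totals only, the calls went from 3415 genes higher and 3742 lower to 1396 higher and 7659 lower, the median of all genes moved to -0.31, and Pspc1 and Cpsf6 were then at -0.31 and -0.30, close to that median. Of 28 tested genes of the wider list, 1 was higher and 22 were lower.

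At 1 ng of RNA, RamDA-seq was set against rdRNA-seq made with another depletion kit, and RamDA-seq gave less of the short isoform than this rdRNA-seq. Neat1-001 had counts of 2472, 2920 and 2814 in RamDA-seq and of 2261, 2324 and 2312 in rdRNA-seq, and was higher by 0.35 (edgeR adjusted p = 0.0158). Neat1-002 had 244, 404 and 266 against 959, 979 and 1170 counts and was lower by 1.66 (adjusted p = 0.00514). Again 1 transcript was higher and 1 lower, where 16.3% of all transcripts were called (6.71% higher, 9.63% lower). The call of Neat1-001 was lost without replicate 1 or 3 of rdRNA-seq or replicate 3 of RamDA-seq (adjusted p = 0.0697, 0.0604 and 0.06). Neat1 as a gene differed by 0.04 (adjusted p = 0.652). The share of Neat1-001 was 88.3%, 86.7% and 88.9% in RamDA-seq and 68.3%, 68.6% and 66.4% in rdRNA-seq, and 10 ng rdRNA-seq libraries had 71.1%, 66.1% and 70.3%. The 1 µg libraries were sequenced as stranded paired ends with another kit and stand in another table, so their shares are not set against these.

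Among the protein genes at 1 ng, Cpsf6 (0.30, edgeR adjusted p = 0.00336) and Nono (0.19, adjusted p = 0.0377) were higher in RamDA-seq. Tardbp fell by 0.50 (adjusted p = 2.32e-05), Rbm14 by 0.53 (adjusted p = 3.05e-05), Sfpq by 0.20 (adjusted p = 0.0172) and Pspc1 by 0.24 (adjusted p = 0.0415), while Nudt21 was at -0.02 (adjusted p = 0.896). In all, 2 of the 8 genes were higher and 4 were lower, where 38% of all genes were called (18.2% higher, 19.8% lower). Leaving out any library but replicate 1 of RamDA-seq took the call of Nono away (adjusted p = 0.0657 to 0.167), as did any but replicate 2 of rdRNA-seq for Pspc1 (adjusted p = 0.0687 to 0.128). Without replicate 2 or 3 of RamDA-seq the adjusted p of Sfpq was 0.0545 or 0.096. With library totals only, which moved the median of all genes to 0.12 and the calls from 2691 genes higher and 2921 lower to 3525 higher and 2273 lower, Sfpq and Pspc1 were at -0.08 and -0.13 and did not pass.

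At 10 pg, about the RNA of a single cell, Neat1 was caught unevenly. RamDA-seq had Neat1 counts of 514, 442 and 121, and SMART-Seq v4, which primes on poly(A), had 4, 209, 290 and 2. Neat1-001 had counts of 438, 310 and 15 against 0, 209, 21 and 2. The groups overlapped, and neither Neat1 (2.79 in log2, SE 1.55, edgeR adjusted p = 0.323) nor Neat1-001 (3.57, SE 2.01, adjusted p = 0.392) passed, where 10.9% of all transcripts did. The share of Neat1-001 was 85.1%, 70.3% and 12.2% in RamDA-seq and 0%, 100%, 7.24% and 100% in SMART-Seq v4, a difference of 4.05 points (exact permutation test, two-sided, p = 0.914). The C1-RamDA-seq libraries had Neat1-001 counts of 902, 1137, 1546 and 1459.

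Among the proteins at 10 pg, Sfpq was higher in RamDA-seq, with counts of 1649, 1615 and 1745 against 1036, 981, 646 and 420 (2.40 in log2, SE 0.32, edgeR adjusted p = 0.00374). Tardbp, with counts of 1233, 1452 and 1369 against 2284, 1170, 1605 and 996 in deeper libraries, was higher by 1.12 (adjusted p = 0.043), and leaving out any library but replicate 1 of SMART-Seq v4 took this call away (adjusted p = 0.0573 to 0.146), as did no filter on low counts (adjusted p = 0.103) and the replicate block (adjusted p = 0.215). Nono, Pspc1, Cpsf6, Nudt21 and Rbm14 differed by between -0.08 and 0.38 with adjusted p from 0.492 upward. In all, 2 of the 8 genes were higher and 0 were lower, where 14.1% of all genes were called (7.43% higher, 6.63% lower). The scale between these groups is uncertain, since the median of all genes was 0.12 with TMM and -0.54 with library totals only, and the calls went from 933 genes higher and 832 lower to 733 higher and 1793 lower. With totals only, Sfpq was still higher (1.73, adjusted p = 0.00849), Tardbp was at 0.46 (adjusted p = 0.367), and Nono was lower by 0.64 (adjusted p = 0.0398), close to the median of all genes.

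The full sets of 10 pg wells, at a smaller depth, show the catch of the long isoform well by well. RamDA-seq had between 59.7 and 569 counts of Neat1-001 in 96 wells (median 199, CV 0.394). C1-RamDA-seq had between 118.8 and 395.5 in 95 wells (median 238, CV 0.264). C1-SMART-Seq v4 had between 0 and 198 in 94 wells (median 32.1, CV 0.874). The lowest C1-RamDA-seq well was thus above the median of the poly(A)-primed wells.

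Across cells of a time or phase, Neat1 was mostly unrelated or inversely related to the genes of its proteins, while those genes were weakly related to each other. Spearman's rho between Neat1 and each of the 7 protein genes within a time had a median of -0.144 over 35 values, of which 4 were positive (-0.465 to 0.154). Within phases the median was 0.0114 over 21 values, 11 of them positive. Pairs among the protein genes had a median of 0.157 over 105 values within times, 91 of them positive, and of 0.139 over 63 values within phases, 54 of them positive. In wells of 10 pg RNA, where no cells differ, these pairs had a median of 0.0253. All are descriptions, since the cells of a group share a plate, and TPM of a cell sum to a fixed total. Pairs among other genes were not set beside those of the protein genes.

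**Figure D5:**
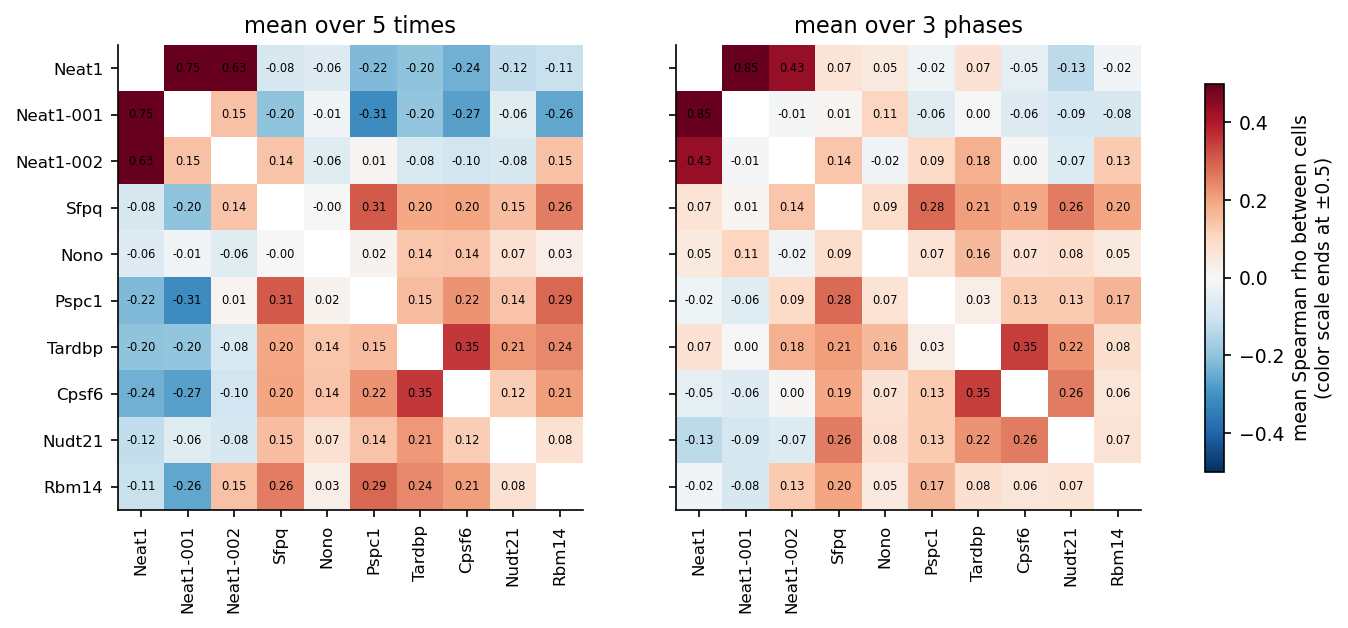
Mean Spearman's rho between cells within a time (left) and within a phase (right) for each pair of the 8 genes and Neat1-001 and Neat1-002, as colour. The row of Neat1 against the protein genes is pale or negative, as for Cpsf6 at -0.242 over the times, while Tardbp with Cpsf6 stands at 0.352.

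By gene, Cpsf6 (-0.242), Pspc1 (-0.219) and Tardbp (-0.203) had the lowest mean rho with Neat1 over the 5 times, and each was negative at every time. With the long isoform the means were -0.314 for Pspc1 and -0.272 for Cpsf6. The 7537 genes of at least 10 mean TPM, assembled transcripts among them, were ranked from the highest mean rho with Neat1 over the times. Nono was at rank 4402, Sfpq at 4865, Rbm14 at 5500, Tardbp at 7000, Pspc1 at 7159 and Cpsf6 at 7315. Nudt21 was below that level and was not ranked. Neat1-001 and Neat1-002 had a mean rho of 0.146 with each other over times and of -0.0064 over phases. On the plates it was -0.41 (0 of 8 groups positive), or -0.528 without the low wells, and in the full sets of 10 pg RNA, where no cells differ, it was -0.351 (0 of 3 positive). On plates the median between Neat1 and the protein genes was 0.114 with all wells (42 of 56 values positive) and -0.0174 without the low ones (23 of 56).

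The genes whose level across cells was most like that of Neat1, among 7537 genes of at least 10 mean TPM, began with its own passengers. Gm27533 and Gm28006, which lie within the Neat1 transcripts, had mean rho of 0.812 and 0.547 over the 5 times and were ranked 1 and 2 in the phases too. Next were Ddit3, a stress-response transcription factor (0.351, ranked 329 of 5856 in the phases), an assembled transcript without a name at chr17:14988314-14988949 (0.35), and Clcn6, a transporter of the endosomal chloride channel family (0.339, ranked 5). Ddit3 had a rho of 0.166 at 0 h and of 0.48 at 12 h.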

How the data were processed

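Libraries of mouse 5G6GR cells and RNA were grouped by GEO's labels. The authors deposited estimated counts and TPM per transcript, made with Sailfish on GENCODE models of mm10, counted without strand for single-end reads, or on models merged with Cufflinks 2.2.1 assemblies after HISAT2 2.0.1 alignment, with outlier cells removed from the latter. Exon start and end positions are those of the gene models the authors deposited. Gene values are sums over transcripts, and an assembled transcript was taken as its own gene. Sequences come from a later GENCODE release with the same transcript version, and positions were matched by coordinates.

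Members and lists were chosen with earlier results of these data known. The text names all 8 members, every Neat1 transcript, the leading transcript and the retained-intron and decay transcripts of the proteins, 2 genes of largest fold in each direction of the wider list among those called between plates with all wells, and the 5 genes most like Neat1.

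Estimated counts, rounded, were tested with edgeR 4.0.16 (TMM, filterByExpr, quasi-likelihood) and DESeq2 1.42.0 as an alternative. Library totals were 5706200 to 8962710 counts in the libraries tested. TPM give no depth. Plate means were tested with limma 3.58.1 on log2(mean TPM + 1) for genes of at least 1 TPM in a cell type. Called without a test means at least 2-fold on that scale. Wells lying 1.5 interquartile ranges below the lower quartile of detected transcripts (0.1 TPM) were left out in an alternative. The labels tie ES and PrE cells to a plate, and cells of the same plate deviated together with correlations of 0.0753 to 0.144. Simulated data were run through edgeR and limma, but no outcome is reported here, so the simulation lends no weight to the calls. Whether the simulated spread matched that between the repeat libraries was not tested. In the tables, 16 per-sample columns matched no sample and were not used. Bulk PrE libraries were not analysed here. Python 3.11.15, pandas 2.3.3, scipy 1.17.1 and R 4.3.3 were used.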

Additional observations from a re-analysis of the deposited data

Results flagged for a closer look

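In 87 groups of 4 to 10 samples, the gap between the outermost value and its neighbour was set against the range of the group, and 10 groups had a gap past the 95% critical value, a test that chance alone passes in a small share of groups. On the plates with all wells, ES cells of plate B1 had a mean of 496 TPM for Nono and ES cells of plate B2 a mean of 93.98 TPM for Rbm14, far from the other ES plates, and both means include the wells with 68 and 66 detected transcripts named above. Without such wells, plate E1 had a mean of 45.8 TPM for Pspc1 in ES cells, above the others at 36.2 to 37.1 TPM.

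Among the 10 pg libraries of SMART-Seq v4, 1 had 209 counts of Neat1-001 and another 269 counts of Neat1-002, where the other libraries had at most 21 counts of Neat1-001. A C1-RamDA-seq library had 1990 counts of Sfpq, apart from the other libraries of its group. Among the 9 wells of 10 pg RNA beside the cells, 1 well had 38.1 TPM of Neat1, of which 37.4 TPM were assigned to Neat1-002, and another had 6.04 TPM of Neat1-003. A well of averaged G1 lysate had 3.01 TPM of Neat1-003, which was at 0 in 7 of the 9 lysate wells.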

How the results depend on the processing

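Estimates for Neat1-001, Neat1-002 and Neat1-003 share reads, and TPM carry no depth, so a low isoform level in a cell cannot be told from a missed one. The differences of Neat1, Neat1-002 and Neat1-003 between PrE and ES plates kept their direction and passed under every alternative in which they were tested. With medians over cells, Neat1-002 fell below the filter of 1 TPM and was not tested. The share of Neat1-001 between plates kept its direction, at -27.6, -29.5, -28.4 and -24.2 points without plates E1, B1, E2 and B2 (exact p = 0.1, the smallest that 3 against 3 can give) and at -27.4 points with plates as blocks. With medians over cells, 12011 transcripts passed between the plates instead of 22203, but fewer were tested (22682 against 43174), and the share called was 53% against 51.4%. At 0.1 TPM in place of 1 TPM, 100% of 12 h cells held Neat1-001. The wells of few transcripts, the plate blocks without them, the RNA wells left out in turn and the scaling by library totals were chosen after seeing the data.

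The RNA libraries depended more on the processing. For RamDA-seq against SMART-Seq v4, 1765 genes and 2863 transcripts passed. Without a filter on low counts these were 996 and 992, with DESeq2 4032 and 5375, and without 1 library each 564 to 1967 and 357 to 3225. The lowest counts came without replicate 1 (genes) or replicate 3 (transcripts) of RamDA-seq. The difference in the share of Neat1-001 ran from -13.2 to 25.9 points without 1 library each, and TPM of the merged models were not run for it. For rdRNA-seq against paRNA-seq 6259 transcripts passed, and 4101 to 4729 without 1 library each. The mean share of Neat1-001 there was 36.1% against 11.5% in counts. In TPM of the merged models, which divide by transcript length, it was 6.46% against 1.67%. The 4.79 points between the latter are thus on another scale than the points in counts. For RamDA-seq against rdRNA-seq 5215 passed, and 3211 to 3657 without 1 library each. Fewer libraries entered each of those fits.

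Replicate numbers of the RNA libraries name no shared sample, and same-numbered libraries deviated with correlations of -0.0296 to 0.0209. With the number as a replicate block, 291 genes and 90 transcripts passed at 10 pg, 2060 transcripts at 1 µg and 575 at 1 ng. Under this block Neat1-001 had an edgeR adjusted p of 0.0709 at 1 µg and 0.0953 at 1 ng, and Neat1-002 of 0.0618 at 1 ng.

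Directions turned only for members that did not pass in the comparison as reported. With library totals some turned values did pass. These were Nono in RamDA-seq against SMART-Seq v4 (edgeR adjusted p = 0.0398), and Pspc1 (0.000428) and Cpsf6 (7.62e-05) in rdRNA-seq against paRNA-seq. In RamDA-seq against SMART-Seq v4, RLE size factors gave 0.0069 for Nudt21 and 0.011 for Rbm14, no filter gave -0.11 for Nono and -0.055 for Pspc1, library totals gave -0.64 for Nono, -0.59 for Pspc1 and -0.28 for Cpsf6, and the replicate block gave 0.055 for Rbm14. Without 1 library each, Nono ran from -0.087 to 0.14, Pspc1 from -0.32 to 0.80, Nudt21 from -0.23 to 0.099 and Rbm14 from -0.24 to 0.12. In rdRNA-seq against paRNA-seq, Pspc1 and Cpsf6 were at -0.083 and -0.070 without a filter, at -0.023 and -0.011 with DESeq2 and at -0.31 and -0.30 with library totals, and the replicate block gave -0.0024 for Pspc1. Without 1 library each, Pspc1 ran from -0.031 to 0.045 and Cpsf6 from -0.0076 to 0.028. In RamDA-seq against rdRNA-seq, library totals gave 0.091 for Nudt21, and without 1 library each Neat1 ran from -0.0061 to 0.087, Nudt21 from -0.073 to 0.061 and Neat1-003 from -0.19 to 0.84. The cause of these shifts was not tested.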
